A study of Mus musculus with 2 samples.

Results

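Kit and Cxcr4 are the receptors through which primordial germ cells (PGCs) receive survival and migration signals, and they are described here with their ligands Kitl and Cxcl12 and with Ackr3, the decoy receptor that binds Cxcl12. These 5 genes were taken by symbol from both RNA-seq tables, in which each of them has 1 row, and they stand among 18742 named genes that were above 0 in at least 1 library. PGCs were sorted by the GFP of the Oct4-deltaPE-GFP transgene from genital ridges of male and female E13.5 mouse embryos and cultured for 1 day on gelatin without feeder cells. Control PGCs received a control lentivirus and Klf9-OE PGCs a lentivirus with the coding region of Klf9, both at an MOI of 5, and each condition was sequenced as 1 library. Which empty or marker vector served as the control of this experiment, and how many embryos were pooled, is not given in the sources used here. For both libraries alike, the labels describe a medium with bFGF and the paper a medium without it.

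KIT is a receptor tyrosine kinase that signals through PI3 kinase and AKT and through the RAS pathway. Its ligand, also called stem cell factor or Steel factor, is made by the somatic cells along the path of the PGCs and in the gonad, in a membrane-bound and a soluble form, and loss of either gene leaves the embryo with few germ cells. CXCR4 is a G protein-coupled chemokine receptor that directs PGCs towards the CXCL12 secreted by the gonad, while ACKR3 takes up CXCL12 without coupling to G proteins. By E13.5 the PGCs have settled in the gonad and migration is over.

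Kit and Kitl transcripts come in spliced forms that the deposited values do not separate, since the files give 1 value per gene. The stretches that tell the forms apart are shown because a reader of a Kit or Kitl value should know what it adds together. Capitals mark the bases that 1 form has and the other lacks, with 20 bases of spliced transcript on each side in lower case, read from GENCODE transcripts (GRCm38).
Kitl, exon 6 of 10, chr10:100080857-100080940, forward strand: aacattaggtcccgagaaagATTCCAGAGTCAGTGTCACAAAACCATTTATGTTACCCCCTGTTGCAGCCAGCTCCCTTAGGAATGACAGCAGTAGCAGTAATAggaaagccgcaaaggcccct
Kit, end of exon 9 of 21, chr5:75639147-75639158, forward strand: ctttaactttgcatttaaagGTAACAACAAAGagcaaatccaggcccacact
The 84 bases of Kitl exon 6 hold 28 codons and carry the main site at which the ligand is cut from the membrane, so the form without them stays mostly membrane-bound. The 12 bases of Kit add 4 codons to the part of the receptor just outside the membrane, the insert known as GNNK.

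Klf9 itself checked the labels. It had an FPKM, that is, fragments per kilobase of transcript scaled to the mapped total, of 2.27 in control PGCs and 80.8 in Klf9-OE PGCs, a ratio of 35.6. The 230 and 1825 reads implied by its intervals gave a ratio of 6.54 after correction for depth, and the cause of the disagreement was not tested. The cells carried the germ cell label in their RNA: all 12 germ cell markers of the list were detected in both libraries, from an FPKM of 4.85 for Nanos2 in control PGCs to 557 for the meiotic gene Sycp3 in Klf9-OE PGCs. The files hold no read totals. The Cufflinks intervals imply 1.22 reads in the Klf9-OE library for each control read (median over 12700 genes). Among genes with 1 to 9 implied reads, within 0.06 of a whole number, even numbers made up 36.4% in the control library (2132 genes) and 89.0% in the Klf9-OE library (1767 genes). Intervals of the Klf9-OE library were therefore also widened by the square root of 2, as if its reads had been counted in pairs.

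Of the 5 genes, Kit was lower and Kitl higher in Klf9-OE PGCs, each with Cufflinks 95% intervals that did not overlap between the libraries. Ackr3 was the only one changed 2-fold, to 0.475 times its control level, but its intervals overlapped. Cxcr4 and Cxcl12 had overlapping intervals and ratios of 0.960 and 1.24. With 1 library per condition no test between the conditions was possible, and the intervals cover estimation within a library and not the difference between cultures. Read against all genes, 1 of the 5 had intervals apart and was higher where 11.2% of 18631 genes did, and 1 of the 5 was lower where 14.4% did. With Klf9-OE intervals widened, the shares over all genes were 8.49% higher and 12% lower, and Kit and Kitl still had intervals apart. None of the 5 was at least 2-fold higher, against 9.82% of all genes, and 1 was at least 2-fold lower, against 9.43%. Counts of 0 or 1 among 5 genes do not set these genes apart from that background.

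**Figure D1:**
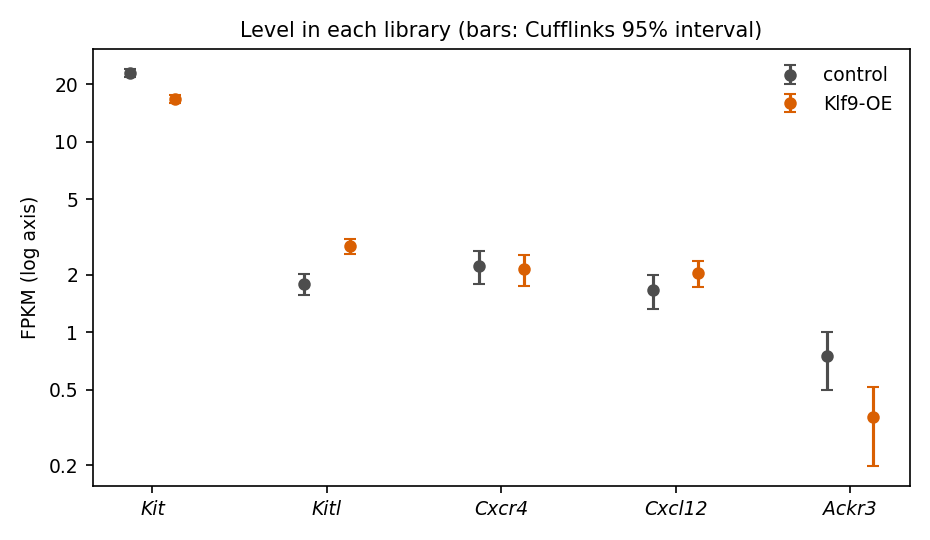
FPKM (log axis) of Kit, Kitl, Cxcr4, Cxcl12 and Ackr3 in the control library (grey) and the Klf9-OE library (orange), with bars for the Cufflinks 95% interval. Kit stands at 23.0 and 16.8, the next highest value of any of the genes is 2.83, and only for Kit and Kitl do the bars of the libraries lie apart.

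Kit (chromosome 5, 75574987 to 75656721 of mm10, forward strand) was by far the most abundant of the genes. Its FPKM was 23.0 in the control library (95% interval 21.9 to 24.1) and 16.8 in the Klf9-OE library (15.95 to 17.6), above 77.7% and 72.0% of the named genes detected in the respective library. The Klf9-OE value was thus the lower one, at 0.730 times the control value (95% interval of the ratio 0.682 to 0.780, from the Cufflinks intervals of both libraries). On the scale of log2(FPKM + 0.1), the difference was -0.45. By its intervals Kit was the most precisely measured of the 5, with about 1903 and 1643 implied reads. Kit has 2 transcription starts in both libraries. The depth estimate and the check for even numbers used only genes with a single start, so implied reads of genes like Kit were not checked. With Klf9-OE reads in pairs the ratio interval was 0.671 to 0.793.

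Most germ cell markers moved with Kit. Of the 12 markers, 10 were lower in Klf9-OE PGCs, as were 9745 of all 18742 genes. Of the 12, 8 were lower with intervals apart, against 14.4% of all genes, and 1, Dazl, was higher with intervals that lay apart as deposited but overlapped once widened. Intervals lie apart more easily where they are narrow, and all 12 markers reached an FPKM of 1. Of the 12565 genes with an FPKM of at least 1 in either library, 2531 were lower with intervals apart. The median log2 fold change of the 12 markers was -0.25, against -0.015 over all genes, and their summed FPKM went from 2450 to 2148. A more negative log2 fold change than that of Kit was seen for 4 of the markers, and a less negative one for 8. Among the former, Dppa3, a marker of PGCs and of pluripotent cells, was at 294 and 179, and Stra8, which germ cells switch on before meiosis, at 120 and 79.4. Ddx4 (300 and 292), Nanos2 (4.85 and 4.68) and Sycp3 (541 and 557) were nearly level, with overlapping intervals. In RNA from a population of cells, a smaller share of germ cells and less Kit RNA per germ cell cannot be told apart. When both libraries were scaled to the same sum of the 12 markers, the log2 fold change of Kit was -0.26, while that of the median gene became 0.16.

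Kitl (chromosome 10, 100015824 to 100100412, forward strand) moved the other way. Its FPKM was 1.80 in the control library (1.56 to 2.03) and 2.83 in the Klf9-OE library (2.57 to 3.08), with 238 and 489 implied reads. The Klf9-OE value was higher, by a ratio of 1.57 (1.34 to 1.84, and 1.31 to 1.89 with Klf9-OE reads in pairs) and a log2 fold change of 0.62. The control file lists Kit and Kitl under loci that Cufflinks assembled from the reads, and the Klf9-OE file under the annotated genes. The ratio of implied reads after correction for depth, which was calculated after the data were seen, was 1.69 for Kitl and 0.710 for Kit.

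Kitl is a gene of somatic cells in the gonad, and RNA of such cells was present at a low level in both libraries. The summed FPKM of 12 gonad somatic markers was 24.6 in control and 33.2 in Klf9-OE PGCs, that of 9 stromal markers 34.6 and 42.3, and that of 9 endothelial markers 22.3 and 35.1. Most of the endothelial sum came from Pecam1 (16.8 and 24.2), which germ cells also express. Cdh5, a cadherin of endothelium, was at 1.995 and 5.09 with intervals apart. Tek, of the same list, was lower (0.735 and 0.439), with intervals that lay apart as deposited but overlapped once widened. Flt1 (1.64 and 1.64) and Tie1 (0.336 and 0.324) were nearly level. Among the defining somatic genes, Wt1 was at 3.41 and 5.64, Amh at 5.99 and 9.29 and Nr5a1 at 1.61 and 1.19, while Sox9, of Sertoli cells, was lower in the Klf9-OE library (2.04 and 1.09, intervals apart). Star, of steroidogenic cells, and Eng, of endothelium, were listed at 0 in control PGCs and at 2.39 and 2.38 in Klf9-OE PGCs. A gene listed at 0 by Cufflinks may not have been estimated, and both genes enter the sums above and the counts that follow. Of the 12 gonad somatic markers, 5, Star among them, were higher with intervals apart (11.2% of all genes) and 1 was lower (14.4%). For the 9 endothelial markers these counts were 3, Eng among them, and 1. The leukocyte list summed to 8.89 and 10.6. Of its 8 genes, 1, Csf1r (0.307 and 1.18), was higher with intervals apart (11.2% of all genes) and 1, Lyz2, was lower (14.4%). Lyz2, of macrophages, was at 1.0005 in the control library and listed at 0 in the other. With overlapping intervals, Fcer1g was at 3.04 and 4.63, Cd68 at 3.69 and 4.11 and Ptprc, the pan-leukocyte marker, at 0.0584 and 0.0239. The part of these cells in the Kitl difference was not tested.

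**Figure D2:**
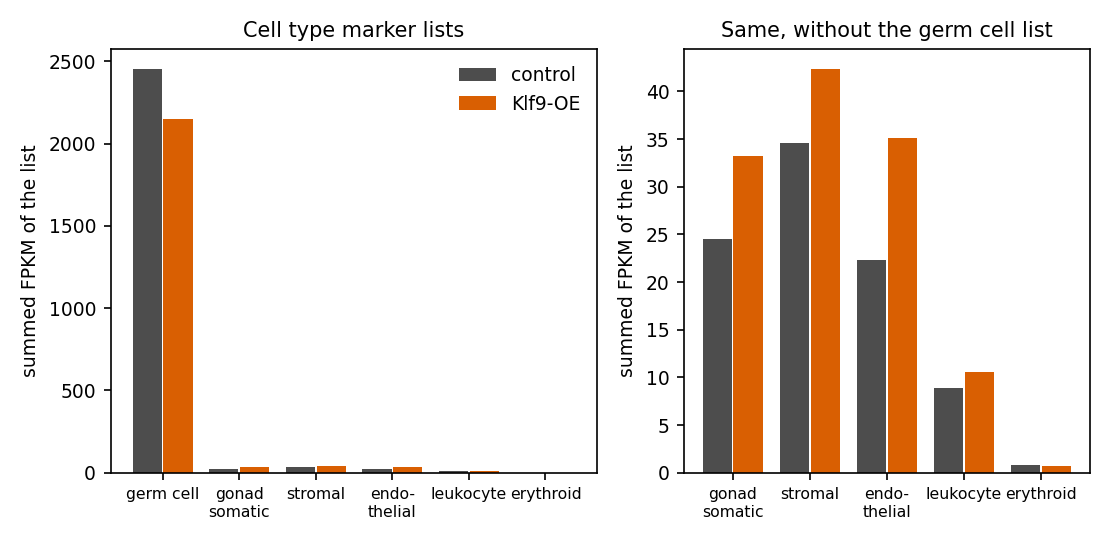
Summed FPKM of each cell type marker list in the control (grey) and Klf9-OE (orange) library, with all lists on the left and the lists other than the germ cell list on a scale of their own on the right. The germ cell list sums to 2450 and 2148, and no other list, as summed, passes 42.3. Genes listed jointly entered no sum. Among them are alpha globin loci at 19.0 and 17.6 in control and 3.90 and 3.40 in Klf9-OE. Beta globin (16.4 and 3.997) and the stromal marker Pdgfra (3.05 and 2.50) are left out too.

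With opposite differences in receptor and ligand, Kit over Kitl differed more between the libraries than either gene alone. Within the control library, Kit stood at 12.8 times Kitl (95% interval 11.2 to 14.7). Within the Klf9-OE library it stood at 5.94 times Kitl (5.36 to 6.58). The log2 difference between these ratios was -1.11 (-1.36 to -0.86, or -1.40 to -0.82 with Klf9-OE reads in pairs). A ratio within a library does not depend on how the libraries are scaled to each other. It does depend on the transcript lengths used for both genes, which were not checked.

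Cxcr4 (chromosome 1, 128588199 to 128592299, reverse strand) had an FPKM of 2.23 in the control library (1.78 to 2.68) and 2.14 in the Klf9-OE library (1.75 to 2.54). The libraries overlapped almost completely. The ratio was 0.960, with an interval of 0.730 to 1.26 on 98.5 and 116 implied reads, so a difference within that range was not detectable at this depth. Its log2 fold change of -0.056 changed sign to 0.003 when the libraries were scaled to the same sum and to 0.13 when scaled to the same germ cell marker sum. Kit, at 10.3 and 7.83 times Cxcr4, was the more abundant receptor in both libraries.

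Cxcl12 (chromosome 6, 117168535 to 117181368, forward strand) was detected as well, at 1.66 in the control library (1.33 to 1.99) and 2.05 in the Klf9-OE library (1.72 to 2.37). The Klf9-OE value was the higher one, by a ratio of 1.24 (0.958 to 1.59), with intervals that overlapped. Its transcripts end in different last exons, and the files sum over them. Cxcr4 over Cxcl12 was 1.35 in control and 1.05 in Klf9-OE PGCs, and the interval of the log2 difference between these ratios, -0.90 to 0.18, included 0. Of the 9 stromal markers, among whose cells Cxcl12 is widely made, 4 were higher with intervals apart (Col1a1, Col1a2, Col3a1 and Pdgfrb), against 11.2% of all genes, and none lower, against 14.4%. By level alone, 6 of the 9 were higher and 3 lower, as were 8997 and 9745 of all 18742 genes. Acta2, the most abundant of them, was at 14.59 and 14.58. Thy1 was at 2.51 and 2.22 with overlapping intervals. Pdgfra, a stromal marker listed jointly with a microRNA and not among the 9, was at 3.05 and 2.50. The part of such cells in the Cxcl12 values was likewise not tested.

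Ackr3 (chromosome 1, 90203980 to 90215722, forward strand) lies 38.4 Mb from Cxcr4 on the same chromosome and was the least abundant of the 5. Its FPKM was 0.753 in the control library (0.4998 to 1.01) and 0.357 in the Klf9-OE library (0.199 to 0.516). The Klf9-OE value was the lower one, and the intervals met only at their ends. The ratio of 0.475 had an interval of 0.272 to 0.828, or 0.233 to 0.967 with Klf9-OE reads in pairs. Only 35.3 and 20.3 implied reads stand behind it. On the log2 scale the difference was -0.90 with a pseudocount of 0.1 and -0.37 with a pseudocount of 1, which weighs down low values.

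With Cxcr4 nearly level, the signalling receptor stood at 2.96 times the decoy receptor in the control library (2.003 to 4.39) and at 5.9998 times in the Klf9-OE library (3.71 to 9.71). The log2 difference between these ratios was 1.02 (0.12 to 1.91), but with Klf9-OE reads in pairs its interval, -0.12 to 2.15, included 0. For Cxcl12 over Ackr3 the ratios were 2.20 and 5.73, with a log2 difference of 1.38 (0.50 to 2.26, or 0.27 to 2.50 with reads in pairs). Both rest on the few reads of Ackr3.

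**Figure D3:**
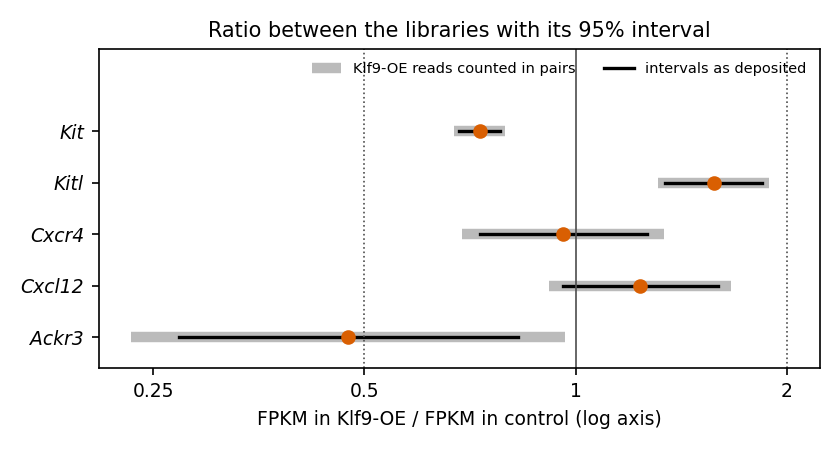
FPKM in Klf9-OE over FPKM in control (log axis) for each gene, with its 95% interval from the deposited intervals (black) and with Klf9-OE reads counted in pairs (grey). The lines mark equal levels and a ratio of 0.5 or 2, and the intervals of Kit (0.682 to 0.780), Kitl (1.34 to 1.84) and Ackr3 (0.272 to 0.828) do not reach 1.

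In order of level, Kit came first in both libraries. In control PGCs it was followed by Cxcr4, Kitl, Cxcl12 and Ackr3, and the intervals of Cxcr4, Kitl and Cxcl12 overlapped each other. In Klf9-OE PGCs it was followed by Kitl, Cxcr4, Cxcl12 and Ackr3. There, Kitl (2.57 to 3.08) lay just above the deposited intervals of Cxcr4 and Cxcl12, which overlapped. With Klf9-OE reads in pairs the interval of Kitl (2.46 to 3.19) overlapped those of both. All values are per kilobase of transcript, so the order of genes depends on the transcript length used for each, which was not checked. For Klf9, the FPKM ratio between the libraries (35.6) and the ratio of implied reads after correction for depth (6.54) disagreed. In the control library Kit and Kitl are listed under assembled loci, and Cxcr4, Cxcl12 and Ackr3 under annotated genes.

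KLF9 binds GC boxes and related CACCC boxes, so the promoters of the genes are of interest although binding was not measured here. RefSeq promoter sequences (GRCm38.p6, 250 bases before to 50 after the transcription start) were found for all 5 genes, with the first entry used for Kit, which has 2. The 6-letter GC box GGGCGG was searched on both strands, with overlapping matches counted. It occurred 5 times in the promoter of Cxcl12, 3 times in those of Kitl and Cxcr4 and once in those of Kit and Ackr3. Of 32851 promoters, 35.7% hold at least 1 such match and 10.7% hold at least 3. The 5-letter box CACCC, on either strand, occurred 2 times for Cxcl12, once for Kit and Cxcr4 and not in the windows of Kitl and Ackr3, and is held by 57.5% of all promoters. The promoters of the pair whose values lay apart, and of Cxcr4, whose values did not, are printed 5′ to 3′ on the strand of the gene, with GC boxes in capitals.
Kit, chr5:75574737-75575036, forward strand: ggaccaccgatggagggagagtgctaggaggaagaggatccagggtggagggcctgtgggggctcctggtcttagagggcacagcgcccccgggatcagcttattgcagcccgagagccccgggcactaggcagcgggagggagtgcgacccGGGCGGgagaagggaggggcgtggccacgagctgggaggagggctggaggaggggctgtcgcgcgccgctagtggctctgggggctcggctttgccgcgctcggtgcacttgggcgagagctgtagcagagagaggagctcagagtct
Kitl, chr10:100015571-100015870, forward strand: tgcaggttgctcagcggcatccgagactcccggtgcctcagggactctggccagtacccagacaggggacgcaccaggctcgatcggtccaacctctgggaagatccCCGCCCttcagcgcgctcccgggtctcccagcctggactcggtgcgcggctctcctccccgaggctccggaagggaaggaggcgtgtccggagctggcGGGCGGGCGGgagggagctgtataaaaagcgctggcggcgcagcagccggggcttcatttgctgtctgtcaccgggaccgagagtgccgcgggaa
Cxcr4, chr1:128592250-128592549, reverse strand: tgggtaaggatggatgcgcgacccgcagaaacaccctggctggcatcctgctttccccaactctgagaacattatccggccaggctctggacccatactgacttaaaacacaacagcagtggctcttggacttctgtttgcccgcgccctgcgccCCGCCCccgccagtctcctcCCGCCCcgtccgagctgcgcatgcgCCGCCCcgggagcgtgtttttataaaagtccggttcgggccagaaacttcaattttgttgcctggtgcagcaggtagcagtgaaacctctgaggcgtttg
Counted from the start, the single GC box of Kit begins at -98, those of Kitl at -143, -45 and -41 and those of Cxcr4 at -95, -75 and -50. Side by side, Kit and Ackr3, with negative log2 fold changes, hold 1 each, Cxcr4, which was nearly level, holds 3, and Kitl and Cxcl12, with positive ones, hold 3 and 5, a description of 5 genes from which nothing follows about binding.

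Downstream of KIT, 41 genes of a list of 43 adaptors, kinases and inhibitors were above 0, and their median log2 fold change was 0.002, against -0.015 over all genes. Intervals lay apart for 5 of them with a higher and for 11 with a lower value in Klf9-OE PGCs, where 11.2% and 14.4% of all genes did. With Klf9-OE intervals widened, 3 and 10 were left, against 8.49% and 12% of all genes. Sh2b3, which encodes the adaptor LNK that restrains KIT signalling, was the only gene of the list past 2-fold, listed at 0 in control PGCs and at 7.08 (6.58 to 7.57) in Klf9-OE PGCs. No ratio is given, since a gene listed at 0 by Cufflinks may not have been estimated. Other genes were picked after their values were seen. Mtor, the growth kinase downstream of AKT, was at 94.1 and 61.3, and Akt1 was at 24.8 and 19.8. Sos1, the exchange factor that activates RAS, was at 16.7 and 9.64. All of these had intervals apart, as did Pik3r1, a regulatory subunit of PI3 kinase, which was higher (1.65 and 2.30).

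Among 26 genes of CXCR4 signalling and receptor trafficking above 0, of 29 symbols listed, 6 were higher and 6 lower with intervals apart, where 11.2% and 14.4% of all genes were. With Klf9-OE intervals widened, 3 were higher and 5 lower, against 8.49% and 12% of all genes. The median log2 fold change was -0.071. The list is mostly made up of G protein subunits, receptor kinases, arrestins and small GTPases. Adrbk2, a kinase that marks active receptors for arrestin binding, was the only one past 2-fold, at 1.03 in the control library (0.860 to 1.19) and at 0.506 in the Klf9-OE library (0.404 to 0.607). Of all genes, 9.43% were at least 2-fold lower and 9.82% at least 2-fold higher. The arrestins were picked after their values were seen. Arrb1 was at 2.54 and 1.78 with intervals apart. Arrb2, the more abundant arrestin, was at 47.1 and 47.3.

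**Figure D4:**
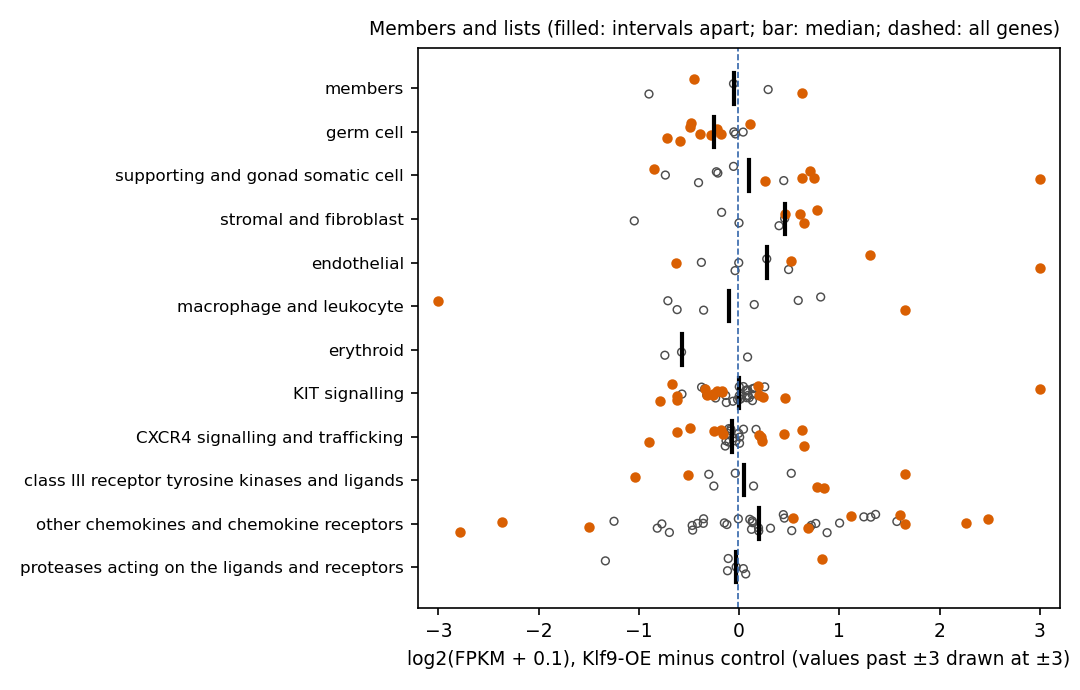
Log2(FPKM + 0.1) in Klf9-OE minus control for the 5 genes (members) and for each gene of the marker and pathway lists, with values past 3 drawn at the edge. Filled points have intervals apart, black bars are medians, and the dashed line is the median of all genes at -0.015. The medians of the KIT and CXCR4 signalling lists (0.002 and -0.071) lie close to it.

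The receptors nearest to KIT in structure, those of the class III tyrosine kinases, were low in both libraries. Flt3 was at 1.53 (1.25 to 1.80) in control PGCs and at 0.690 (0.534 to 0.846) in Klf9-OE PGCs, lower like Kit. Csf1r, the receptor of macrophages, was at 0.307 (0.196 to 0.417) and 1.18 (0.834 to 1.53), and its ligand Csf1, picked like Pdgfrb after its value was seen, at 1.80 and 3.33. Pdgfrb was at 1.06 and 1.89. Kit was thus the only receptor of this class above an FPKM of 2 among those listed singly. Pdgfra is listed jointly with a microRNA, at 3.05 and 2.50, and entered no count.

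Among the other chemokines and their receptors, 41 of 56 symbols were above 0, and only 12 reached an FPKM of 1 in either library. Intervals lay apart for 7 with a higher and 3 with a lower value among the 40 with a single entry in each file, where 11.2% and 14.4% of all genes did. The largest differences among those with an FPKM of at least 1 were in ligands of inflammation. Cxcl10 was at 1.18 (0.739 to 1.61) and 6.05 (5.14 to 6.96), and Ccl2 at 8.21 (6.80 to 9.61) and 17.9 (16.003 to 19.8). Ccl7 and Cxcl5 were 3.38 and 3.28 times their control level. Ccl17 was lower, at 1.41 (0.519 to 2.29) and 0.192 (0 to 0.464), with intervals that overlapped once widened. The median log2 fold change of this list was 0.20, with 0.61 among its genes with an FPKM of at least 1 and 0.090 with a pseudocount of 1.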

How the data were processed

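RNA from E13.5 PGCs was sequenced by the authors as 51-mer single-end reads (TruSeq v2 kit), mapped to mm10 with TopHat2 and Bowtie and quantified with Cufflinks; versions are not given in the sources used here. The deposited values are FPKM per gene with the bounds of a 95% interval. Values of rows with the same symbol were summed. Log2 fold changes are of FPKM + 0.1, a scale on which changes of low genes come out too small. A gene was counted past 2-fold by its FPKM ratio with no pseudocount, and intervals were compared for 18631 genes with 1 row in each file. Implied reads are the square of 2 times the FPKM over the upper half-width. The interval of a ratio combined the relative half-widths of both values on the log scale and covers counting and assignment error only. Alternatives were pseudocounts of 0.01 and 1, rescaling, minimum levels, a ratio of 4 and widened intervals, and the ratio of implied reads and widened intervals of ratios within a library were added after the data were seen.

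The genes and lists were chosen with earlier results of these data known. From each list, the text names up to 4 genes in each direction with an FPKM of at least 1, intervals apart and a 2-fold ratio, or otherwise the highest 2; further genes are said to be picked afterwards or serve as markers. The steps were tested on simulated data. Python 3.11.15, numpy 2.4.6, pandas 2.3.3 and matplotlib 3.10.9 were used.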

Additional observations from a re-analysis of the deposited data

How the results depend on the processing

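Kit stayed lower, Kitl higher, Cxcl12 higher and Ackr3 lower under every pseudocount and scaling tried. The log2 fold change ranged from -0.49 to -0.26 for Kit, 0.45 to 0.81 for Kitl, 0.20 to 0.47 for Cxcl12 and -1.08 to -0.37 for Ackr3. That of Cxcr4, -0.058 to 0.13, crossed 0. Only 1 of these values moved by more than the interval of its gene, Kit with the libraries scaled to the same germ cell marker sum (-0.26). Widening the Klf9-OE intervals left those of Kit and Kitl apart. It moved the lower bound of the log2 difference of Cxcr4 over Ackr3 from 0.12 to -0.12, past 0. Counts over all genes depended on the minimum. The 1841 genes at least 2-fold higher became 494 with an FPKM of at least 1 in either library, 1092 with an FPKM above 0 in both, 847 with a pseudocount of 0.1 and 1001 with a ratio of 4. The 1768 genes at least 2-fold lower became 476, 836, 750 and 1057, respectively. Ackr3 was below an FPKM of 1 in both libraries and so entered no count with that minimum, and with a pseudocount of 0.1 it was not past 2-fold. Of 32 list medians recomputed, 9 moved by 0.1 or more. With 1 library per condition, no library could be left out.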

Other observations

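Proteases that cut these ligands and receptors were mostly level between the libraries. Adam10 was at 30.5 and 28.3 and Adam17, which sheds the ectodomains of KIT and its ligand, at 19.3 and 18.9, with overlapping intervals. Mmp9, which can release soluble KIT ligand, was named after its value was seen. It was at 7.22 in the control library (6.60 to 7.84) and 12.9 in the Klf9-OE library (12.1 to 13.7). It was the only 1 of the 7 detected proteases with intervals apart, where 11.2% of all genes were higher and 14.4% lower in that way. A count of 1 among 7 does not set the list apart from that background.

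Globin RNA listed jointly, by contrast, was higher in the control library, a comparison given here without intervals. The alpha globin genes, listed jointly at a pair of loci, had an FPKM of 19.0 and 17.6 in control PGCs and 3.90 and 3.40 in Klf9-OE PGCs, and the beta globin genes listed jointly were at 16.4 and 3.997. The remaining erythroid markers were below 1 in both libraries, with Alas2 at 0.532 and 0.570 and Hbb-y at 0.263 and 0.143. None of the 3 listed singly and above 0 had intervals apart, where 11.2% of all genes were higher and 14.4% lower. The jointly listed globins belong to the erythroid list, but under their joint names they entered none of its counts or sums. They were looked at after this was seen.

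The genes nearest to each of the more abundant genes in level, by the distance of log2(FPKM + 0.1) over the 2 libraries, were B3gat3 and Klc3 for Kit (distances 0.027 and 0.031), Gbgt1 and Adamtsl4 for Kitl (0.011 and 0.037), Lhfpl2 and Gprc5c for Cxcr4 (0.017 and 0.018) and Cdc42ep1 for Cxcl12 (0.012), followed by a joint Serpina3 locus (0.020). With 2 libraries such likeness is a description only.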
